A study of Mus musculus with 2 samples.

Results

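The genes described here are 33 mouse genes of the response to low oxygen and of glycolysis, chosen by symbol, and all 33 were found among the 32245 gene symbols of the series. They comprise 17 glycolytic genes (glucose transporters, the enzymes from hexokinase to lactate dehydrogenase and the lactate exporter), 15 other known targets of the hypoxia response, and Hif1a itself. The genes were measured in 2 single-cell RNA libraries of mammary tumours, 1 per group and without replicates. In the control library the tumours grew from 4T1 cells that carried a control sgRNA, and in the knockout library from K2-KO 4T1 cells, which carried the K2 sgRNA against Kindlin-2. 4T1 is an established line from a BALB/c mammary carcinoma and serves as a triple-negative breast cancer model. Both kinds of cells were placed in mammary fat pads of BALB/c females, and the tumours were taken at 150 mm3 and digested with collagenase and DNase for 45 min. Live cells were sorted by their mCherry signal, and the labels give neither the fraction that was loaded, nor how many tumours were pooled, nor whether the knockout line is a clone.

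Cells short of oxygen stop degrading the transcription factor HIF-1alpha, the product of Hif1a, because the prolyl hydroxylases that mark it for destruction need oxygen. HIF-1alpha then raises glucose uptake, the glycolytic enzymes and the export of lactate, and at the same time genes of mitophagy, lipid storage, pH control and collagen modification. Glycolytic genes are also raised by growth signals and by the activation of immune cells, whereas several of the other targets follow oxygen more closely. In tumours, macrophages and neutrophils that enter poorly supplied areas are known to carry such RNA. Hif1a RNA is no measure of the factor, which is controlled through the stability of its protein.

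The control library held 8038 barcodes and 214163620 UMIs (unique molecular identifiers, counts of distinct RNA molecules), and the knockout library 7250 barcodes and 180774106 UMIs. The libraries shared 13 barcode sequences. After filtering, 7530 and 6761 cells were analysed, and 5787 and 4656 of them fell into 1 of 7 classes gated on marker UMIs that are not among the 33 genes. Fermt2, which encodes the targeted Kindlin-2, was at 39.2 CPM (its share of all UMIs in the class, as counts per 1e6) in control and 17.4 CPM in knockout tumour cells. Barcodes were matched to libraries by the number of their suffix alone. All values below are UMIs summed over a class in CPM, ratios are log2 of knockout over control, and numbers in brackets after them are exact 95% intervals. The intervals cover counting error only, not differences between tumours. No difference between libraries was tested, and none can be told apart from a difference between these particular tumours. The intervals also take each UMI as independent and leave out the uneven spread of UMIs over cells. They are therefore too narrow for the cells of a library as well. A gene was counted as higher or lower past 1.5-fold if it had at least 20 UMIs in the class. Because the chemistry reads the 3′ ends of transcripts, levels are compared between classes or libraries for 1 gene and not between genes.

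The DNA that HIF-1alpha binds is centred on the letters ACGTG or GCGTG. The stretches below show where these stand upstream of 5 of the genes. P4ha1, Bnip3, Egln3 and Hilpda were abundant targets with low ratios in neutrophils, and Mxi1 was the target with a ratio above 0. Sequences are from RefSeq (GRCm38.p6, the build of the deposited counts), 5′ to 3′ on the gene's strand and ending at the start, with both motifs on either strand in capitals.
P4ha1: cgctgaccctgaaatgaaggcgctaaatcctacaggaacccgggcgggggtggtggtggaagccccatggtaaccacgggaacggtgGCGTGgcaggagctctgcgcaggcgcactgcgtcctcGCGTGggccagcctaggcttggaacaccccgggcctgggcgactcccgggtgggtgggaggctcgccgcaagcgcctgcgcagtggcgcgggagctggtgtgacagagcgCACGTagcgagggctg
Bnip3: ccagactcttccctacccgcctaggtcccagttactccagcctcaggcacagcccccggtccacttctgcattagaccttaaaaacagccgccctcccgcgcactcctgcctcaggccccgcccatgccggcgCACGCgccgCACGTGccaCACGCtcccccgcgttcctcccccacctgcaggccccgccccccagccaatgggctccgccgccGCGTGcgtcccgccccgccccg
Egln3: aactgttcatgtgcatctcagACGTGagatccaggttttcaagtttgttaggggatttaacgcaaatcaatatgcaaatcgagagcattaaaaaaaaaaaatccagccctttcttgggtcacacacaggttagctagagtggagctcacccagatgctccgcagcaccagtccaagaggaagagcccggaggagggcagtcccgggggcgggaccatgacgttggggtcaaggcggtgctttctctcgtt
Hilpda: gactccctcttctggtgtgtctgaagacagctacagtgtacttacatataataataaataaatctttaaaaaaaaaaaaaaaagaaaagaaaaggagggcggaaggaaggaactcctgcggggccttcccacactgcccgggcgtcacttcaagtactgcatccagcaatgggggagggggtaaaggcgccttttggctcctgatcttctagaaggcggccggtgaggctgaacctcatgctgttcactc
Mxi1: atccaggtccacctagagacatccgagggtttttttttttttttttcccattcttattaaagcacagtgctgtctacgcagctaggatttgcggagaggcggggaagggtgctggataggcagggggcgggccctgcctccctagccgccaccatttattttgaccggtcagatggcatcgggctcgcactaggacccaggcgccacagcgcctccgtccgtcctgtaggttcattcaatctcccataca
The P4ha1 stretch is chr10:59323046-59323295 on the plus strand, upstream of a gene that runs to 59373304. The Bnip3 stretch is chr7:138909520-138909756 on the minus strand and stops at the first exon of the GENCODE model. The Egln3 stretch is chr12:54203875-54204124 on the minus strand. Those of Hilpda and Mxi1 are chr6:29272238-29272487 and chr19:53310256-53310505, both on the plus strand. Over the 250 bases upstream of the outermost start, Bnip3 held 5 matches, P4ha1 held 3, Egln3 held 1, and Hilpda and Mxi1 held 0, although each of the last 2 has a further start whose window holds a match. Where CACGTG occurs, the motif reads ACGTG on both strands and counts as 2 matches. Ero1l, whose stretch is not shown, held 3. Windows were found for 30 of the 33 genes, and 23 of them (76.7%) held a match. These were 11 of 16 glycolytic genes, 11 of 13 hypoxia targets and Hif1a. In a separate check, the bases after the start lay in a GENCODE transcript of the gene for 23 of the 30 windows. The share with a match was 38.6% over all 27025 genes of the table and 59.1% over the 4615 with at least 20 UMIs in neutrophils. Of the latter, it was 60.9% among the 1020 genes at least 1.5-fold lower in the knockout library and 52.7% among the 1078 higher. The median GC content of the windows was 64.0% for the members and 52.0% for all genes, and its part in the difference was not tested. A match is a description of these letters and not a binding site.

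In neutrophils, gated on the calprotectin gene S100a8, the members lay further apart between the libraries than in the other classes. Hypoxia targets together made up 3331 CPM of the RNA of 456 control neutrophils and 865 CPM of that of 179 knockout neutrophils. Of the 31 members with at least 20 UMIs, 24 were at least 1.5-fold lower in the knockout library and 0 higher, where 22.6% of 5789 genes were lower and 23.1% higher. The median log2 ratio was -2.21 over 13 targets and -1.01 over 17 glycolytic genes, beside 0.03 over all genes. Among genes with at least 100 UMIs, 19 of 26 members and 19.5% of 2329 genes were lower.

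Hilpda, which encodes a protein that keeps fat in lipid droplets, stood at 836 CPM in control neutrophils (787 to 888) and 159 CPM in knockout neutrophils (127 to 196), 5.27-fold lower. Ero1l, the oxidase that drives disulfide formation in the endoplasmic reticulum (now also named Ero1a), stood at 796 CPM (748 to 846) and 172 CPM (139 to 210). P4ha1, a subunit of the collagen prolyl 4-hydroxylase, stood at 392 CPM (358 to 428) and 80.3 CPM (58.3 to 108). In each of these the intervals, which cover counting error only, lie far apart. Bnip3, a receptor that delivers mitochondria to autophagy, was at 325 and 69.3 CPM, a log2 ratio of -2.23 (-2.75 to -1.75). Its relative Bnip3l was lower by less, at 202 and 106 CPM (-0.93, -1.37 to -0.52). Egln3, an oxygen-sensing prolyl hydroxylase that is itself a HIF target, was at 358 and 82.1 CPM (-2.12, -2.60 to -1.68). The intervals of the ratios lie below 0 for both mitophagy genes and for the sensor.

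The remaining targets were scarcer. Ndrg1, a stress-responsive gene of differentiation, was at 135 and 36.5 CPM (-1.89, -2.63 to -1.22), with 21% of its UMIs in 1 cell. Ddit4, an inhibitor of mTORC1, was at 69.5 and 12.8 CPM (-2.44, -3.80 to -1.34). Ankrd37, a small ankyrin-repeat gene, was at 31.2 and 5.47 CPM (-2.51, -4.85 to -0.86), the knockout value resting on 3 UMIs. Those genes were lower although their intervals are wide. Pdk1, the kinase that closes pyruvate's way into mitochondria, was at 21.1 and 5.47 CPM (-1.95, -4.31 to -0.25). Egln1, the main oxygen sensor of the family, was at 32.8 and 14.6 CPM (-1.17, -2.47 to -0.06). Car9, a carbonic anhydrase of the cell surface, was at 18.7 and 3.65 CPM (-2.36, -5.49 to -0.35), but 42% of its UMIs sat in 1 control cell, and as a mean over cells its ratio turned to 0.089. Adm and P4ha2, the genes of a vasodilator peptide and of another collagen hydroxylase subunit, had 6 and 12 UMIs in the control library and none in the knockout, where a count of 0, taken to allow up to 3 UMIs, allows 5.47 CPM (the exact interval ends at 6.73). Mxi1, an antagonist of MYC, was the exception among the targets at 99.2 and 119 CPM (0.26, -0.20 to 0.70).

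Glycolytic genes were lower by less than the targets. All 17 had a ratio below 0, and 11 were past 1.5-fold. Slc2a1, the glucose transporter GLUT1, was at 521 CPM (482 to 562) and 210 CPM (173 to 252). Hk2, the inducible hexokinase, was at 351 and 172 CPM (-1.03, -1.37 to -0.71), while the constitutive Hk1 was at 69.5 and 47.4 CPM (-0.55, -1.24 to 0.09). The phosphofructokinase genes Pfkp and Pfkl, which control the committed step, were 3.46-fold and 3.75-fold lower. Pfkfb3, whose product makes the activator of that step, was at 209 and 87.6 CPM (-1.26, -1.73 to -0.81). From the lower part of the pathway, Aldoa (aldolase) was at 646 and 394 CPM, Tpi1 (triosephosphate isomerase) at 344 and 151 CPM, and Gapdh at 1424 and 907 CPM. Pgam1 (phosphoglycerate mutase) was at 481 and 221 CPM and Eno1 (enolase) at 476 and 235 CPM. Ldha, which turns pyruvate into lactate, was at 680 CPM (636 to 727) and 223 CPM (185 to 266), 3.06-fold lower.

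6 glycolytic genes lay within 1.5-fold in neutrophils. They were Slc2a3, the transporter GLUT3, at 137 and 94.9 CPM, Hk1, Gpi1 (glucose phosphate isomerase) at 202 and 137 CPM, Pgk1 (phosphoglycerate kinase) at 316 and 257 CPM, Pkm (pyruvate kinase) at 867 and 692 CPM, and Slc16a3, the lactate exporter MCT4, at 786 and 648 CPM. Hif1a was at 649 and 374 CPM (-0.79, -1.02 to -0.57).

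**Figure D1:**
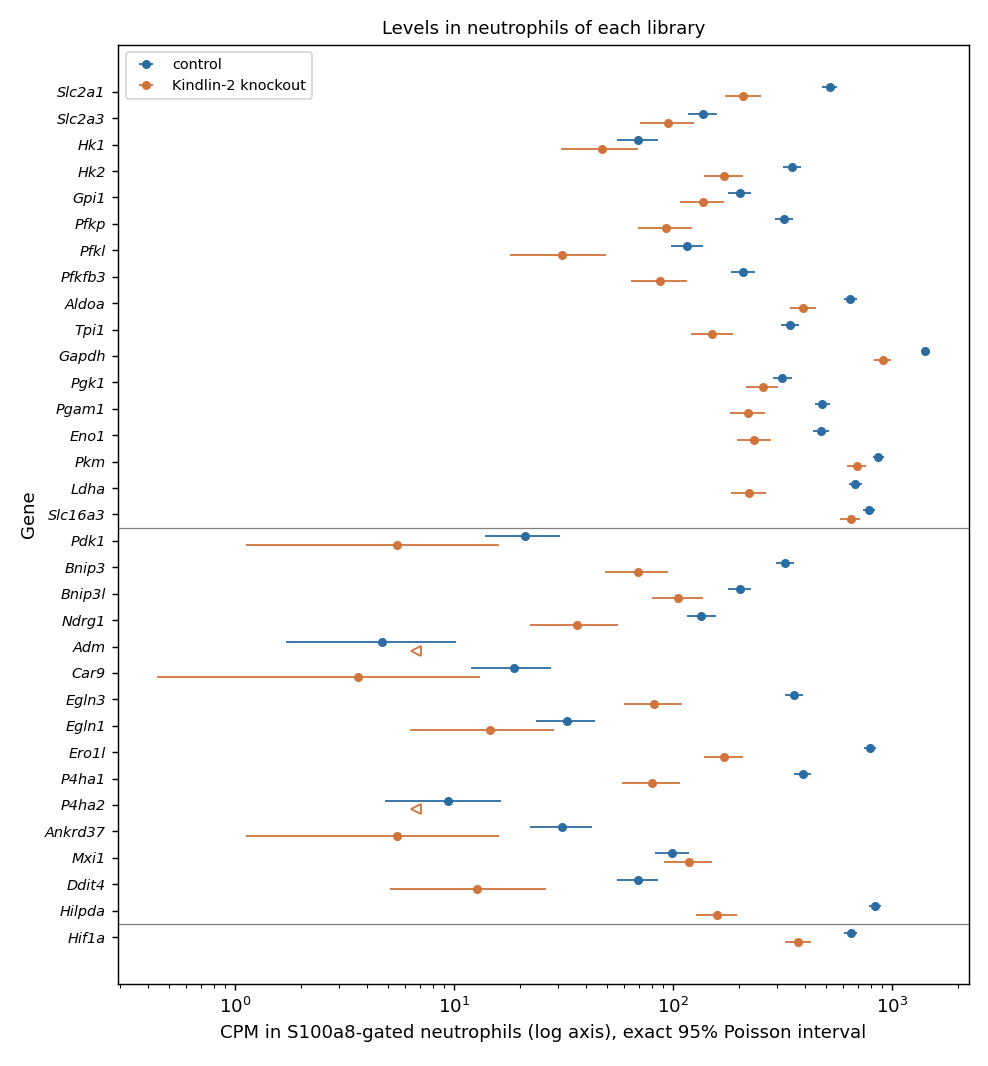
Levels of the 33 genes in S100a8-gated neutrophils, in CPM on a log axis, with exact Poisson intervals; blue is the control and orange the knockout library, and open triangles mark the upper bound where no UMI was found. The hypoxia targets in the middle block are separated by more than the glycolytic genes above them, and Mxi1 is the target whose orange point lies to the right.

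The other genes of these pathways were counted in the same way. Their lists were chosen with earlier results of these data known, so the counts are no independent support. Among 32 other hypoxia genes, 19 had at least 20 UMIs, and 12 of them were lower and 1 higher. Fam162a, a mitochondrial protein gene, was at 447 and 73.0 CPM, the haem oxygenase gene Hmox1 at 401 and 73.0 CPM, Higd1a at 254 and 63.9 CPM, and the histone demethylase gene Kdm3a at 145 and 38.3 CPM. Of 13 other glycolysis and pyruvate genes with enough UMIs, 5 were lower and 1 higher. Bsg, the chaperone of the lactate exporters, was at 394 and 142 CPM (-1.47, -1.83 to -1.12). Of 11 genes of the tricarboxylic acid cycle, 1 was lower and 0 higher, and their median log2 ratio was 0.18.

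Other signals moved with these values in the neutrophil gate, and their part in the result was not tested. The 18 genes that respond to tissue dissociation summed to 18859 CPM in the control and 27299 CPM in the knockout, 9 being higher and 7 lower. Among them were heat shock genes, with Hspa1a at 137 and 3.65 CPM and Hsp90aa1 at 790 and 223 CPM, whereas the immediate early gene Nr4a1 was at 244 and 776 CPM. The 5 tumour cell markers summed to 295 and 94.9 CPM with Epcam at 0 in both, the 6 macrophage markers to 176 and 162 CPM, and the 5 monocyte markers to 282 and 745 CPM. The 3 markers of plasmacytoid dendritic cells were at 0 in the control and summed to 126 CPM in the knockout. Neutrophil markers themselves summed to 78984 and 63857 CPM, with the chemokine receptor gene Cxcr2 at 673 and 1400 CPM and Retnlg at 863 and 370 CPM. Median depth per neutrophil was close, at 2558.5 and 2822 UMIs. In the 223 control and 109 knockout neutrophils without a UMI of 7 epithelial and macrophage genes, the medians were -2.57 for the targets and -1.44 for the glycolytic genes, and 24 members were lower.

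Hypoxia target RNA was spread unevenly over the neutrophils. With every cell thinned to 1000 UMIs, which left out 30 control and 6 knockout cells, 23.9% of control neutrophils (19.97 to 28.3) had at least 5 target UMIs, against 4.05% of knockout neutrophils (1.64 to 8.16). Cells with no target UMI made up 27.2% (23.1 to 31.7) and 56.1% (48.3 to 63.6). Cells with many target UMIs were fewer and cells with none more frequent in the knockout library. Within each library the 10% of cells with the most target UMIs held 42.7% (control) and 52.6% (knockout) of all of them. Thinned to 500 UMIs, the shares were 45.1% and 64.2%, so they depend on the number of UMIs. At 1000 UMIs the mean was 3.42 target UMIs per control cell and 0.88 per knockout cell, so the shares are not comparable between libraries. The variance over the mean was 6.10 and 3.14. Thinned neutrophils with a Bnip3 UMI made up 22.5% in the control and 4.62% in the knockout, beside 1.72% and 0.93% of T cells thinned to the same depth. For Hilpda the thinned shares in neutrophils were 29.3% and 9.25%, and 36.4% and 14.5% before thinning. For Ero1l they were 31.7% and 9.83%. The Spearman correlation across cells between glycolytic and target UMIs was 0.52 in the 426 control cells and 0.28 in the 173 knockout cells, among cells that share a library and a depth. Glycolytic UMIs averaged 7.61 per control and 3.87 per knockout cell, and target UMIs were also fewer in the knockout. The 2 correlations rest on unlike counts and are not compared.

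**Figure D2:**
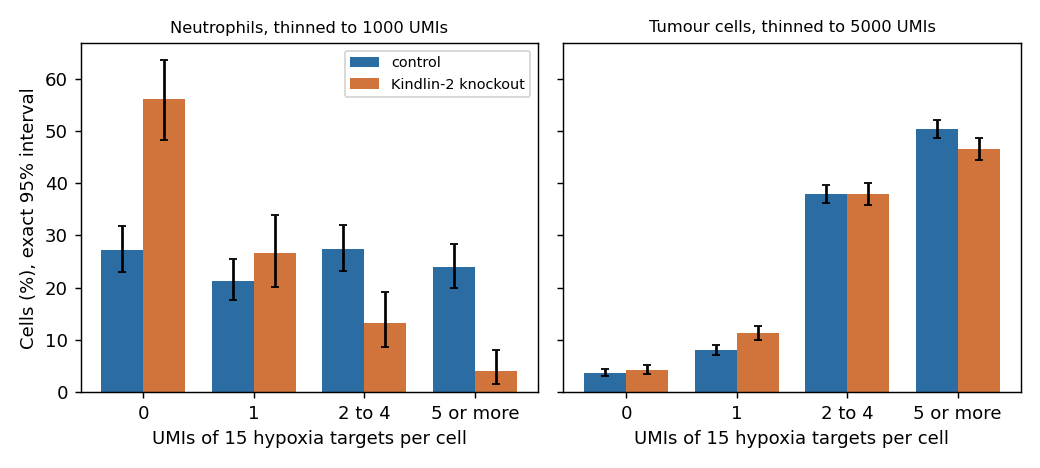
Percent of cells by their number of UMIs from the 15 hypoxia targets, in neutrophils (left, thinned to 1000 UMIs per cell) and tumour cells (right, thinned to 5000), with exact intervals; blue is the control and orange the knockout library. Neutrophils with at least 5 target UMIs made up 23.9% of the control and 4.05% of the knockout, while the bars of the tumour cells differ far less.

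Tumour cells, gated on Epcam without Ptprc (3215 control and 2145 knockout cells), were close to each other in most of the 33 genes. All 33 had at least 20 UMIs. At least 1.5-fold lower were 2 members and higher 1, where 6.14% of 17321 genes were lower and 20% higher. The members together made up 0.805% of tumour cell UMIs in both libraries. The median log2 ratio was -0.30 over the targets and -0.04 over the glycolytic genes, beside 0.13 over all genes. The lower members numbered 4 with median-ratio scaling, in cells without a Top2a UMI and in cells without gland UMIs, and 1 in cells with little Lcn2. The 18 dissociation stress genes lay on the same side as the targets, summing to 12514 CPM in control and 9421 CPM in knockout tumour cells with a median of -0.39, 16 of them below 0 and 6 past 1.5-fold, and their part in the result was not tested. At this depth counting error is small, and the interval excluded 0 for 29 of the 33, 20 below and 9 above. The same count was not made over all genes, so it does not set the members apart.

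Ero1l had the lowest ratio in tumour cells, with 91.9 CPM (90.3 to 93.5) for control and 42.8 CPM (41.5 to 44.0) for knockout cells, 2.15-fold lower. P4ha2 followed at 15.3 and 8.15 CPM (-0.91, -1.02 to -0.79). Ankrd37 was at 18.1 and 12.1 CPM (-0.58), just inside the 1.5-fold line. These are targets of hypoxia and not enzymes of glycolysis. Egln3 was at 130 and 91.2 CPM, Ddit4 at 107 and 77.7 CPM, and Hilpda at 30.01 and 22.2 CPM. Bnip3 was at 64.5 and 51.7 CPM, Bnip3l at 156 and 127 CPM, P4ha1 at 110 and 89.2 CPM and Pdk1 at 22.7 and 18.8 CPM. Nearer to equality were Ndrg1 (304 and 284 CPM), Adm (13.0 and 11.8 CPM) and Egln1 (36.6 and 34.1 CPM). Mxi1 at 72.1 and 95.1 CPM (0.40, 0.36 to 0.44) and Car9 at 46.7 and 59.5 CPM (0.35, 0.30 to 0.40) were the targets with a higher value in the knockout.

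Enzymes of glycolysis went both ways in tumour cells. Pgam1 was at 431 and 551 CPM (0.35), Ldha at 582 and 700 CPM (0.27), Tpi1 at 347 and 412 CPM (0.25) and Hk2 at 159 and 175 CPM (0.13). Gapdh was at 1782 and 1889 CPM (0.08), and Aldoa had a log2 ratio of 0.05, both under the median of all genes in the class (0.13). Slc2a1 was lower at 80.6 and 64.6 CPM (-0.32, -0.36 to -0.27). Lower by less were Eno1 (655 and 579 CPM), Pkm (1081 and 972 CPM), Pfkl (105 and 94.9 CPM), Pfkp (42.6 and 39.0 CPM), Gpi1 (242 and 224 CPM) and Pgk1 (440 and 414 CPM). The processed Eno1b copy was at 11.2 and 16.9 CPM, and reads of near-identical copies could have been divided between it and Eno1. Hk1 was at 59.1 and 57.4 CPM, Pfkfb3 at 4.12 and 3.85 CPM and Hif1a at 108 and 105 CPM. Slc16a3 and Slc2a3 were nearly silent in this class at 0.370 and 0.615 CPM and at 0.178 and 0.217 CPM, and the former is the member counted as higher.

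Outside the 33 genes, Vegfa, the growth factor of blood vessels, stood at 55.1 and 15.5 CPM in tumour cells (-1.83, -1.90 to -1.75). Hmox1 was at 15.2 and 3.36 CPM. Stc2, a secreted glycoprotein gene, was higher at 3.63 and 15.1 CPM, and Tmem45a likewise at 0.0962 and 0.529 CPM. Of 31 other hypoxia genes, 4 were higher and 3 lower, and of 20 genes of the tricarboxylic acid cycle 0 were past 1.5-fold either way. The make-up of the gate differed between the libraries: mammary gland markers summed to 22.2 and 164 CPM, and a Top2a UMI, a sign of division, was found in 48.8% and 66.2% of cells. Among cells with a Top2a UMI the target median was -0.21 and Ero1l was at -0.78, and among cells without one Ero1l was at -1.25. Without cells carrying gland marker UMIs, Ero1l was at -1.17.

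Tumour cells with the most glycolytic RNA were also those with the most RNA of many hypoxia targets. Each cell was thinned to 5000 UMIs, and the cells with more than 44 (control, 627 of 3155) or 45 (knockout, 404 of 2098) glycolytic UMIs were set against the rest. The targets did not choose these cells. The ratios were not computed over all genes, so they do not set the targets apart from other genes. Bnip3 stood at 115 UMIs per 100 cells in the glycolytic group and 14.3 in the other control cells, a log2 ratio of 3.0 (2.82 to 3.19), and at 88.4 and 14.9 in the knockout (2.57, 2.33 to 2.81). Ankrd37 was at 33.3 and 4.23 in the control (2.98) and 21.3 and 3.25 in the knockout (2.71). Car9 was at 76.2 and 14.6 (2.38) and at 91.6 and 19.5 (2.23). The intervals of the 2 libraries overlap for Ankrd37 and Car9 and lie just apart for Bnip3.

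For Ero1l the contrast was smaller in the knockout. In the control it was at 182 UMIs per 100 glycolytic cells and 23.2 per 100 others (2.97, 2.83 to 3.12), and in the knockout at 51.7 and 14.9 (1.79, 1.52 to 2.06). Ndrg1 was at 454 and 102 in the control (2.16, 2.08 to 2.23) and at 292 and 120 in the knockout (1.29, 1.18 to 1.39). Adm had ratios of 2.91 (2.54 to 3.30) and 1.53 (1.00 to 2.04) and Hilpda of 1.74 (1.46 to 2.01) and 0.75 (0.32 to 1.17). Egln1 stood at 1.55 and 1.09, P4ha2 at 1.87 and 2.30, Pdk1 at 1.45 and 1.56, Bnip3l at 1.19 and 1.22 and P4ha1 at 1.12 and 0.75. Mxi1 was at 0.74 (0.55 to 0.92) and 0.44 (0.22 to 0.65), and Ddit4 at 0.38 and 0.40. Egln3, at 0.15 (0.00 to 0.29) and -0.00 (-0.23 to 0.21), and Hif1a, at 0.11 and -0.09, did not separate the glycolytic cells from the others beyond counting error or barely so.

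**Figure D3:**
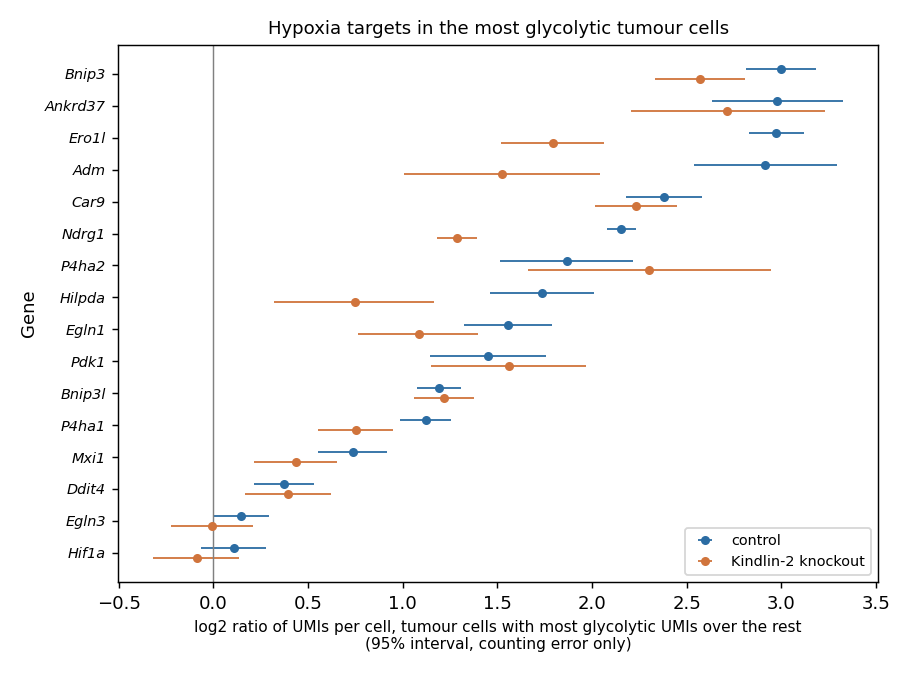
Tumour cells: log2 ratio of UMIs per cell between cells with the most glycolytic UMIs and all others, for 15 hypoxia targets and Hif1a, with intervals for counting error; blue is the control and orange the knockout library. Bnip3 and Ankrd37 lie near 3 in the control, Egln3 and Hif1a lie near 0, and Ero1l, Adm, Ndrg1 and Hilpda lie lower in the knockout.

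The 10% of tumour cells with the most target UMIs held 36.9% (control) and 31.1% (knockout library) of them. For glycolytic UMIs the shares were 24.9% and 24.1%. The mean per cell was 6.68 and 5.54 target UMIs but 33.7 and 33.6 glycolytic UMIs. Such shares depend on the number of UMIs, so they are not comparable between the 2 lists or between the libraries. For Ero1l alone the variance over the mean of its UMIs per thinned cell was 4.44 for control and 1.47 for knockout cells, where sampling alone gives about 1. For Ndrg1 it was 6.11 and 3.59, and for Gapdh 6.04 and 4.95. This value also depends on the mean, and Ero1l UMIs were fewer in the knockout, so genes and libraries are not compared by it. At least 5 target UMIs were found in 50.4% (48.6 to 52.1) and 46.5% (44.4 to 48.7) of tumour cells.

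In macrophages, gated on the complement gene C1qa, hypoxia RNA went with Arg1 in both libraries. Arg1 encodes arginase, which consumes arginine, and a cell was called Arg1-high from 5 Arg1 UMIs per 10000. This gave 959 Arg1-high and 472 Arg1-low cells in the control and 597 and 544 in the knockout. Of the 33 members, 16 were at least 1.5-fold higher in Arg1-high cells of the control and 1 lower, where 4.54% of genes were higher and 10.3% lower. In the knockout 25 were higher and 1 lower, where 4.77% of genes were higher and 11.2% lower. The medians over targets were 0.81 and 0.95 and over glycolytic genes 0.51 and 0.68, beside -0.07 and -0.08 over all genes. Of 20 genes of the tricarboxylic acid cycle 0 were past 1.5-fold either way in either library.

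Egln3 was at 8.52 CPM in Arg1-low and 37.2 CPM in Arg1-high control macrophages (2.13, 1.76 to 2.52), and 5.90 and 33.4 CPM in the knockout (2.5, 2.06 to 2.97). Bnip3 was at 62.8 and 169 CPM (1.42, 1.28 to 1.57) and at 57.8 and 175 CPM (1.60, 1.45 to 1.75). Ankrd37 was at 5.06 and 16.8 CPM (1.73) and at 5.90 and 25.2 CPM (2.09). The intervals of the 2 libraries overlap for each of these genes. Slc16a3, the lactate exporter, was at 54.0 and 104 CPM (0.95, 0.79 to 1.10) and 50.3 and 126 CPM (1.32, 1.16 to 1.49), and Pgk1 at 379 and 650 CPM (0.78) and 374 and 764 CPM (1.03). Hilpda stood at 216 and 377 CPM in the control (0.81, 0.73 to 0.89) and 111 and 286 CPM in the knockout (1.37, 1.26 to 1.48). For Ero1l the values were 81.7 and 145 CPM (0.83, 0.70 to 0.96) and 45.0 and 133 CPM (1.56, 1.40 to 1.74). Ddit4 was wider in the control, at 18.1 and 51.3 CPM (1.5) and 17.2 and 29.2 CPM (0.76).

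Several members did not follow Arg1. Hk2 was at 243 and 240 CPM in the control and 321 and 319 CPM in the knockout, Pfkfb3 at 80.1 and 78.1 CPM and at 105 and 92.9 CPM, and Pfkp at 117 and 135 CPM and at 165 and 173 CPM. Hif1a was at 421 and 449 CPM (0.09, 0.03 to 0.15) and at 465 and 416 CPM (-0.16, -0.23 to -0.10). Car9 had ratios of 0.39 and -0.33, each with an interval that includes 0. Slc2a3 was lower in Arg1-high cells, at 4.26 and 1.01 CPM in the control and 3.39 and 2.07 CPM in the knockout; the interval of the knockout ratio includes 0. The line at 5 divides a range: 25.9% of Arg1-high and 35.8% of Arg1-low control cells, and 28.1% and 20.04% in the knockout, had between 2.5 and 10 Arg1 UMIs per 10000. Median depth was 18784 and 16385.5 UMIs in Arg1-high and Arg1-low control cells and 17849 and 12680.5 in the knockout. Cycling markers summed to 163 and 278 CPM in the control and to 112 and 207 CPM in the knockout. The 18 dissociation stress genes had a median of -0.19 in the control, with 14 below 0 and 0 past 1.5-fold. In the knockout their median was -0.38, with 17 below 0, 5 lower past 1.5-fold and 0 higher. The part of the cycling and stress genes in the result was not tested.

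**Figure D4:**
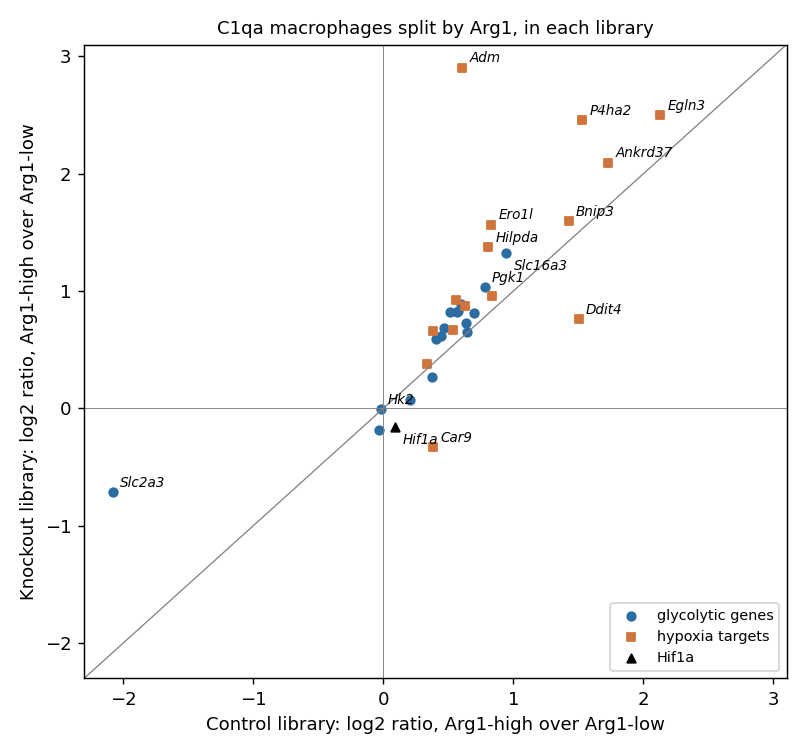
Log2 ratio of CPM between Arg1-high and Arg1-low macrophages for the 33 genes, in the control library (x axis) and the knockout library (y axis), with the line of equality; circles are glycolytic genes, squares hypoxia targets and the triangle Hif1a. Most points lie above 0 in both libraries and most above the line, with Egln3 at 2.13 and 2.5, and Slc2a3 lies below 0 in both.

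Between the libraries, in Arg1-high macrophages, 2 members were higher and 2 lower, where 7.8% of genes were higher and 4.98% lower. As a mean over cells 1 was higher and 4 lower. Glycolytic genes had a median of 0.16 and targets of -0.13, which became 0.0023 with the gate level doubled. Hk2 was at 240 and 319 CPM (0.41, 0.35 to 0.48) and Pfkp at 135 and 173 CPM (0.36, 0.27 to 0.45). Those past 1.5-fold were Ankrd37 (16.8 and 25.2 CPM) and the scarce Slc2a3 on the higher side, and Ddit4 (51.3 and 29.2 CPM; -0.82, -1.01 to -0.63) and the scarce Adm (4.26 and 2.82 CPM) on the lower. In Arg1-low macrophages 0 members were higher and 3 lower, where 8.29% of genes were higher and 5.11% lower. The lower members numbered 7 with doublet calls ignored, 6 as a mean over cells and 1 with the gate level doubled. They were Hilpda (216 and 111 CPM; -0.96, -1.08 to -0.84), Ero1l (81.7 and 45.0 CPM; -0.86, -1.05 to -0.67) and Adm, with 21 and 3 UMIs. For Ero1l 19% and for Adm 62% of the UMIs sat in 1 cell. The 5 monocyte markers summed to 361 and 646 CPM in Arg1-high and to 491 and 819 CPM in Arg1-low cells, with Ly6c2 at 2.30 and 34.8 CPM and at 17.4 and 82.4 CPM. In Arg1-low cells Arg1 was at 210.2 and 147 CPM and the stress genes summed to 10127 and 11889 CPM. The part of these signals in the ratios was not tested.

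Monocytes, gated on Ly6c2, numbered 123 and 342, and 30 members had at least 20 UMIs. Of these 1 was higher and 3 lower, where 11.8% of genes were higher and 7.26% lower. Hilpda was at 250 and 143 CPM (-0.81, -1.04 to -0.58), Ero1l at 113 and 70.0 CPM (-0.69, -1.02 to -0.34) and Egln3 at 45.5 and 19.7 CPM (-1.21, -1.78 to -0.62). Pfkp was higher at 130 and 198 CPM (0.61, 0.33 to 0.89). Adm, Car9 and P4ha2 had too few UMIs, and with no minimum 5 members were lower. In the same gate Arg1 was at 790 and 305 CPM, the 6 macrophage markers summed to 3428 and 2415 CPM and the 5 T cell markers to 137 and 35.8 CPM, and their part in these ratios was not tested.

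Fibroblasts, gated on Col1a1, were few, with 96 and 92 cells. Of 32 members 1 was higher and 6 lower, where 13.3% of genes were higher and 7.13% lower. Bnip3 was at 126 and 49.2 CPM (-1.35, -1.62 to -1.09), Hilpda at 74.8 and 29.7 CPM (-1.34, -1.68 to -0.99), Ddit4 at 95.2 and 52.5 CPM (-0.86, -1.14 to -0.58) and Ndrg1 at 211 and 126 CPM (-0.74, -0.92 to -0.56). Egln3 and Slc2a3 were lower from 65 and 56 UMIs in all. Hk2 stood on the other side at 136 and 214 CPM (0.65, 0.47 to 0.83). As a mean over cells 11 members were lower. Glycolytic genes had a median of -0.36, all genes 0.06. Pericyte markers in this gate summed to 429 and 81.9 CPM, and their part in these ratios was not tested.

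T cells, gated on Cd3e, numbered 466 and 757, and of 30 members 0 were higher and 1 lower, where 8.83% of genes were higher and 7.94% lower. The lower members numbered 3 with doublet calls ignored or with no minimum. The 1 member was Hilpda at 228 CPM (214 to 243) and 110 CPM (102 to 118). After thinning to 1000 UMIs, Hilpda was detected in 16.2% and 6.23% of T cells. P4ha1, at 94.5 and 119 CPM (0.34, 0.16 to 0.51), and Egln3, at 32.9 and 44.8 CPM (0.45, 0.15 to 0.75), lay on the higher side. Ldha was at 511 and 513 CPM and Pkm at 426 and 422 CPM. In the same gate the 18 stress genes summed to 9512 and 7960 CPM, with 16 below 0. Cycling markers summed to 492 and 300 CPM, tumour cell markers to 80.5 and 53.9 CPM and macrophage markers to 81.7 and 58.9 CPM. Endothelial markers summed to 110 and 227 CPM, and Ly6c2 was at 78.8 and 197 CPM. The part of these signals in the ratios was not tested.

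Across the classes, 3 members had a ratio below 0 with an interval that excluded 0 in all 7, namely Hilpda, Ero1l and Eno1. How many of all genes did so was not counted. Hilpda ran from -0.40 in Arg1-high macrophages to -2.40 in neutrophils. Ero1l ran from -0.13 in Arg1-high macrophages to -2.21 in neutrophils, and Eno1 from -0.11 to -1.01 in the same 2 classes. Ndrg1 was below 0 in all 7 as well, with an interval excluding 0 in 6. The 5 neutrophil markers summed to 14.7 and 9.33 CPM in T cells, against 78984 and 63857 CPM in neutrophils.

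The order of classes by level differed from gene to gene. In the control library neutrophils were the highest of the 7 classes for 8 of 17 glycolytic genes and 7 of 15 targets, and in the knockout for 3 and 1. Arg1-high macrophages were the highest for 7 glycolytic genes and 4 targets in the control and for 8 and 8 in the knockout. These counts were not made over all genes. The neutrophil class held 1280491 UMIs in the control and 548004 in the knockout, so its scarce genes rest on few UMIs. Ero1l at 796 CPM in control neutrophils stood above the other classes, which lay between 81.7 and 145 CPM. Slc16a3 was highest in neutrophils (786 CPM) and lowest in tumour cells (0.370 CPM). P4ha2 and Adm were highest in fibroblasts, at 220 and 43.0 CPM, and Car9 in tumour cells at 46.7 CPM. Hif1a was highest in T cells (652 CPM) and neutrophils (649 CPM), followed by monocytes (609 CPM, 561 to 660), with all 3 intervals overlapping, and lowest in tumour cells (108 CPM).

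**Figure D5:**
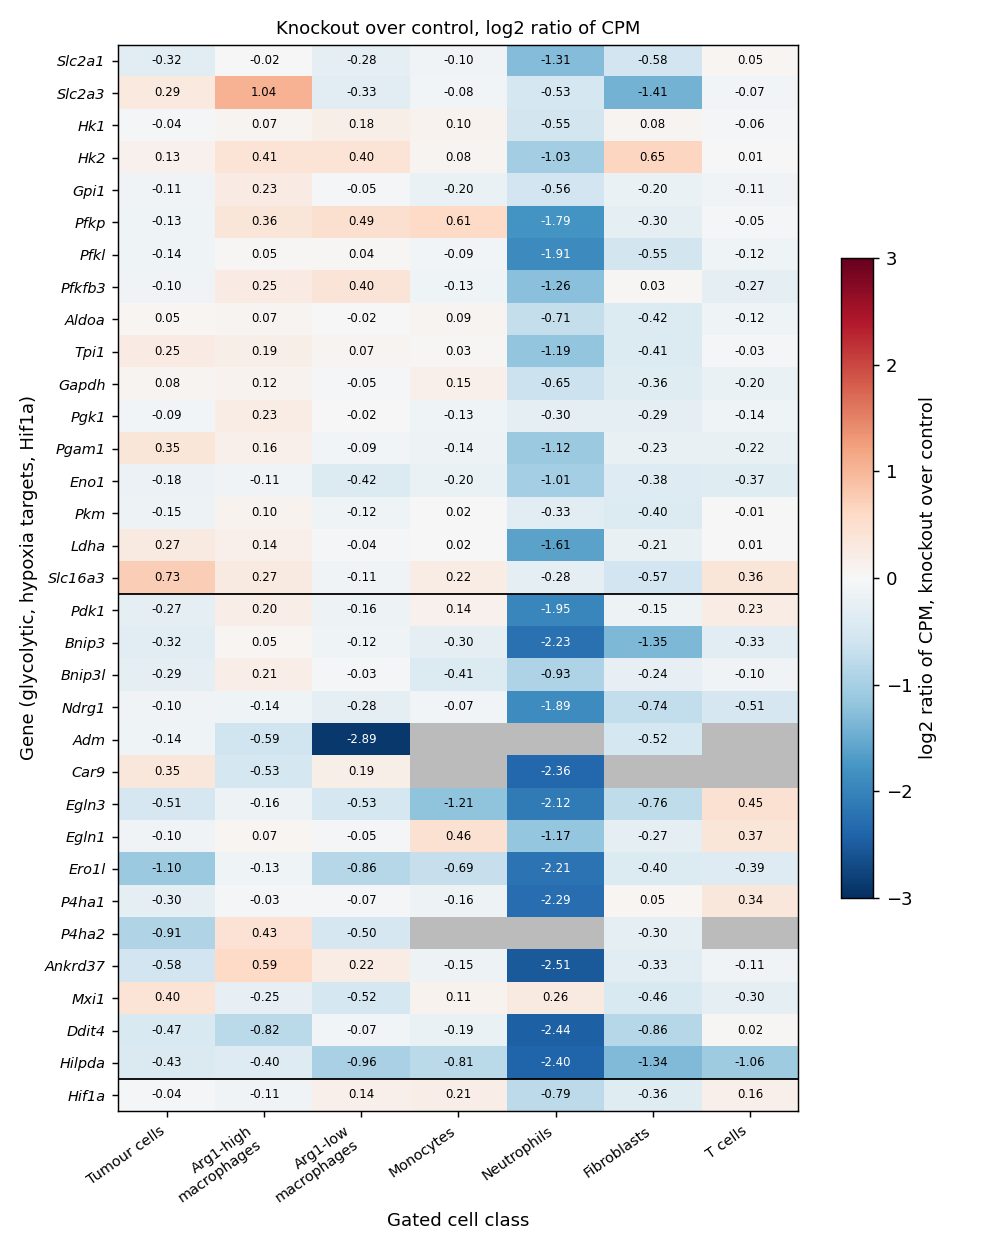
Log2 ratio of CPM, knockout over control, for each of the 33 genes (rows) in the 7 gated classes (columns); blue is lower and red higher in the knockout library, and grey marks under 20 UMIs. The neutrophil column is blue except for Mxi1 and the grey Adm and P4ha2, and the Hilpda and Ero1l rows are blue in every class.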

How the data were processed

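The deposited matrix holds UMI counts per gene and cell for both libraries, made by the authors with Cell Ranger 2.1.1 on mm10 per the submitters' processing notes. The header of the matrix gives Cell Ranger 6.0.1 instead. Each barcode's suffix number was taken as its library number. Barcodes were kept from 500 UMIs and 200 genes upward if mitochondrial UMIs did not exceed 20%, and doublets were called by Scrublet in each library (scanpy 1.11.5) and left out.

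Classes were gated on UMIs per 10000. Tumour cells had Epcam at least 0.5 with Ptprc below 0.5. Macrophages had C1qa at least 3, neutrophils S100a8 at least 10, fibroblasts Col1a1 at least 10 and T cells Cd3e at least 1. Monocytes had Ly6c2 at least 2 with C1qa below 3 and no UMI of Cd3e, Klre1 or Siglech. Macrophages were divided at 5 Arg1 UMIs per 10000. Cells in more than 1 gate (210 and 190) were left out, and the thresholds were set after seeing the data. The members and lists were chosen with earlier results of these data known.

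UMIs were summed per class and scaled to CPM, with exact Poisson intervals for levels and conditional binomial intervals for ratios (scipy 1.17.1), a calculation tested on simulated counts. With 1 library per group no test was made. Per-cell values were computed after thinning to 5000 UMIs in tumour cells and 1000 in other classes. All 33 members are named; of the other lists, up to 4 genes per class with the largest size of log2 ratio and at least 50 UMIs could be named. Promoters came from RefSeq (GRCm38.p6).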

Additional observations from a re-analysis of the deposited data

Results flagged for a closer look

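The log2 ratios of 4 members lay past 1.5-fold in opposite directions in 2 classes, and none of these differences was tested. Slc2a3 differed by 2.44 between Arg1-high macrophages (1.04, from few UMIs) and fibroblasts (-1.41). Hk2 differed by 1.68 between fibroblasts (0.65) and neutrophils (-1.03). Pfkp differed by 2.40 between monocytes (0.61) and neutrophils (-1.79). Ankrd37 differed by 3.101 between Arg1-high macrophages (0.59) and neutrophils (-2.51).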

How the results depend on the processing

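No paired analysis was possible because each group is 1 library. The cause of the shifts below was not tested. In neutrophils the members counted as lower ranged from 21 to 27 at 1.5-fold and numbered 20 at 2-fold, with 0 higher under each alternative run; the target median ranged from -2.57 to -2.12 and the glycolytic median from -1.44 (without cells holding epithelial or macrophage UMIs) to -0.92. Car9 there turned to 0.089 as a mean over cells. The Lcn2 and neutrophil subsets and the S100a9 and Csf3r gate (24 and 25 members lower) were chosen after seeing the data.

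In tumour cells the glycolytic median was -0.16 with median-ratio scaling, -0.073 with a total without members, mitochondrial and ribosomal genes, -0.014 as a mean over cells, -0.11 in cells with Lcn2, and above 0 at 0.059 in cells with a Top2a UMI and 0.085 in cells with little Lcn2. The target median was -0.41 with median-ratio scaling, -0.21 with Top2a and -0.19 with little Lcn2. Members higher numbered 0 with doublet calls ignored, at 2-fold or with little Lcn2, and 2 without Top2a or with Lcn2. Members lower numbered 4 with median-ratio scaling, without Top2a or without gland UMIs, and 1 at 2-fold or with little Lcn2.

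In Arg1-high macrophages the target median was 0.0023 with the gate doubled. Members higher numbered 1 with the reduced total, as a mean over cells, with doublet calls ignored, from 50 UMIs and at 2-fold, and members lower 1 with median-ratio scaling, 4 as a mean over cells and 0 at 2-fold. In Arg1-low macrophages the target median was -0.45 with doublet calls ignored. Members higher numbered 2 as a mean over cells, and members lower 6 as a mean over cells, 7 with doublet calls ignored, and 1 with the gate doubled or at 2-fold.

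In monocytes members higher numbered 0 with median-ratio scaling, doublet calls ignored or 2-fold, and 2 as a mean over cells or with no minimum; members lower numbered 5 with no minimum and 1 at 2-fold. In fibroblasts members higher numbered 0 with the gate doubled or at 2-fold and 2 with no minimum, and members lower 11 as a mean over cells and 3 at 2-fold. In T cells members higher numbered 1 as a mean over cells, and members lower 2 as a mean over cells and 3 with doublet calls ignored or no minimum.

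For Arg1-high over Arg1-low macrophages of the control, the glycolytic median was 0.58 with median-ratio scaling and 0.43 with doublet calls ignored, the target median 1.02 as a mean over cells, the members higher 5 at 2-fold, and Adm turned to -0.20 with doublet calls ignored. In the knockout the medians were 0.76 and 1.20 as a mean over cells, the members higher 9 at 2-fold, and the members lower 2 as a mean over cells and 0 with the gate doubled, from 50 UMIs or at 2-fold. At a thinned depth of 2500 UMIs the 10% of tumour cells with the most target UMIs held 37.6% and 32.6%, and at 500 UMIs that share was 64.2% in knockout neutrophils. Intervals cover counting error only, and scarce members (Adm, Car9, P4ha2, Slc2a3) are limited by depth.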
